A study of Mus musculus with 4 samples.

Results

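FoxO1 chromatin signal in the mouse heart was compared between 2 models of hypertrophy, transverse aortic constriction (TAC) and isoproterenol (Iso). The comparison covered all 16126 merged regions of the deposited table and 2 of the series' 4 libraries. Both libraries came from hearts of male wild type C57BL/6 mice aged 12 weeks and were made after 7 days. TAC mice had the aorta narrowed by surgery, which loads the left ventricle with pressure. Iso mice received the beta-adrenergic agonist isoproterenol subcutaneously at 3 mg/kg per day. A library of mice given vehicle and a sham operation (Veh/Sham) lay on neither side of the ratio and is given as a further level, and the input library was not analysed here. Chromatin was precipitated with an antibody to FoxO1 (Santa Cruz sc-11350), Drosophila chromatin was spiked in, and each library was made from a pool of 3 hearts. With 1 library a side there was no spread between replicates, so every difference below is one between 2 libraries and none was tested. Whole hearts were used, so fewer cells of a type and less signal per cell cannot be told apart, and neither can the surgery and the drug be told apart from the 2 pools that carried them.

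FoxO1 is a forkhead transcription factor that binds a core sequence of the form TGTTTAC and switches on genes of stress resistance, autophagy, cell cycle arrest and fuel use. Insulin and growth factors act through the kinase Akt to phosphorylate it and drive it out of the nucleus, and its own targets include Irs2 and the insulin receptor gene Insr, which feed back on that signal. In heart muscle it is known for its part in atrophy, metabolic adaptation and hypertrophic growth. CpG islands are stretches rich in CG that mark most housekeeping promoters.

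Promoter sequences are shown for regions at both ends of a restricted set, so that their base composition can be read beside the values. They are the 250 bases before a RefSeq start site (GRCm38.p6), and were chosen after the values were seen. They were taken from a set of 2606 regions of at least median signal, each covering at least 150 of those bases. Regions in part of the genome, predicted genes and regions not assigned to the window's gene were left out of the set. Ranks among these sequences therefore hold within this set only. Every CG is in capitals. The 3 highest TAC to Iso ratios of this set were at Vdac1, the main channel of the mitochondrial outer membrane (chr11:52361347-52361596, plus strand), Prr3 (chr17:35979296-35979545, minus strand) and Jdp2, a repressor of AP-1 (chr12:85599768-85600017, plus strand).

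Vdac1: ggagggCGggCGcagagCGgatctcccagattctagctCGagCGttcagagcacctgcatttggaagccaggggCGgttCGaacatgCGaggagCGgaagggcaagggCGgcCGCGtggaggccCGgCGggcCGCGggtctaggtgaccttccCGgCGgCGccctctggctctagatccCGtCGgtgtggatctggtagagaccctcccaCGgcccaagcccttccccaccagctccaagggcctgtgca
Prr3: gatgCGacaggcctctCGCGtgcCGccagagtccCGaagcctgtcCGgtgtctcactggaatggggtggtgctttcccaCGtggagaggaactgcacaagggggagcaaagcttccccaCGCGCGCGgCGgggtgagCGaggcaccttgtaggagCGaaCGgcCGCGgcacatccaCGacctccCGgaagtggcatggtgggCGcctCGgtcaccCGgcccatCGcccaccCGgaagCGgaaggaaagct
Jdp2: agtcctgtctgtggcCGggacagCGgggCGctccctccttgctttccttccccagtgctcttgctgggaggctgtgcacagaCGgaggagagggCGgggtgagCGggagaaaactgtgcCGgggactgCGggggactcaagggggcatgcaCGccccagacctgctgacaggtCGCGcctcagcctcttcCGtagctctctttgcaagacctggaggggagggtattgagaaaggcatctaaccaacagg

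The region over the Vdac1 sequence had a mean signal of 22.0 in TAC, against 4.4 in Iso and 9.10 in Veh/Sham. The Prr3 region had 24.6 in TAC, 5.43 in Iso and 8.93 in Veh/Sham, and the Jdp2 region 21.0 in TAC, 4.88 in Iso and 3.86 in Veh/Sham. The 3 lowest ratios of the same set were at Phkg2, a catalytic subunit of phosphorylase kinase (chr7:127573098-127573347, plus strand), Tfrc, the transferrin receptor (chr16:32608646-32608895, plus strand), and Pacrgl (chr5:48372142-48372391, plus strand).

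Phkg2: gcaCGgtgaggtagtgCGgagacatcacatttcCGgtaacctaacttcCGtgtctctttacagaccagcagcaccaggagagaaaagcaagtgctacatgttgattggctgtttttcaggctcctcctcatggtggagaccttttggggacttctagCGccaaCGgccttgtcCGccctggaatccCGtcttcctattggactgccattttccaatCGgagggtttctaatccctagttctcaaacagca
Tfrc: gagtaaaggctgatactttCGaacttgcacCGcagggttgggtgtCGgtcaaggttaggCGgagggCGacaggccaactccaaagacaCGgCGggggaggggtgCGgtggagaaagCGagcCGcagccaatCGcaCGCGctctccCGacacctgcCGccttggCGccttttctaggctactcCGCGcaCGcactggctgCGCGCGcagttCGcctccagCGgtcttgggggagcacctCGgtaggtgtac
Pacrgl: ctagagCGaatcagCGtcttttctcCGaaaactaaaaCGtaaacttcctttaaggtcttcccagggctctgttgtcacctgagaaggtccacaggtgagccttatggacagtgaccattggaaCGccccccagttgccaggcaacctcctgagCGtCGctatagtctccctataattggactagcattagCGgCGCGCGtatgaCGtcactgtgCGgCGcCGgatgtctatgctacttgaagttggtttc

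The region over the Phkg2 sequence had 7.44 in TAC, against 22.6 in Iso and 7.56 in Veh/Sham. The Tfrc region had 8 in TAC, 22.0 in Iso and 10.1 in Veh/Sham, and the Pacrgl region 6.86 in TAC, 18.4 in Iso and 4 in Veh/Sham. The sequences on the TAC side held 22, 25 and 12 CG and those on the Iso side 9, 25 and 15, so the counts overlapped.

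Signal was higher in TAC than in Iso at the median region, and ratios spread widely around that median. The median region had a mean signal, which is the average coverage over the region, of 13.96 in TAC, 11.0 in Iso and 8.71 in Veh/Sham. Peak depths, the highest coverage in a region, had medians of 19, 16 and 12. The log2 ratio of TAC to Iso, with 1 added to each value, had a median of 0.29 over all regions. How the libraries were scaled to each other is not stated in any source at hand, so this shared shift was subtracted. The log2 ratios below are relative to that median and are called centred ratios. Peak ratios, the TAC to Iso ratios of peak depths, and their counting intervals are not centred. They are to be read against 1.13, the ratio of the summed peak depths, and not against 1. The quartiles of the centred ratio were -0.41 and 0.41, and its 5% and 95% points were -1.13 and 1.09.

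Relative to the median, 2738 regions (17.0%) were at least 1.5-fold higher in TAC and 2807 (17.4%) at least 1.5-fold lower. At 2-fold the counts were 1035 and 1082, and at 4-fold 71 and 85. Without centring, 5065 regions were higher and 1427 lower. Of all regions, 7087 (43.9%) were called as enriched in neither TAC nor Iso, and 30.6% of those were called in Veh/Sham. The rest were called in none of TAC, Iso and Veh/Sham. The table was merged over further libraries as well, 2 of which were not used here. The regions called in neither TAC nor Iso held 1142 of the 2738 higher regions and 1168 of the 2807 lower ones. Within them 16.1% were higher and 16.5% lower, near the shares over all regions. Depth limits how far a single region can be read. For 87.9% of regions the exact 95% counting interval of the TAC to Iso ratio of peak depths held the ratio of the summed depths, 1.13, while the interval lay above it in 5.79% and below it in 6.33%. These intervals treat peak depths as plain counts and cover counting error only. A peak depth is the highest value in a region, taken separately in each library, so the intervals are approximate. Groups of regions are therefore described below by medians and shares.

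**Figure D1:**
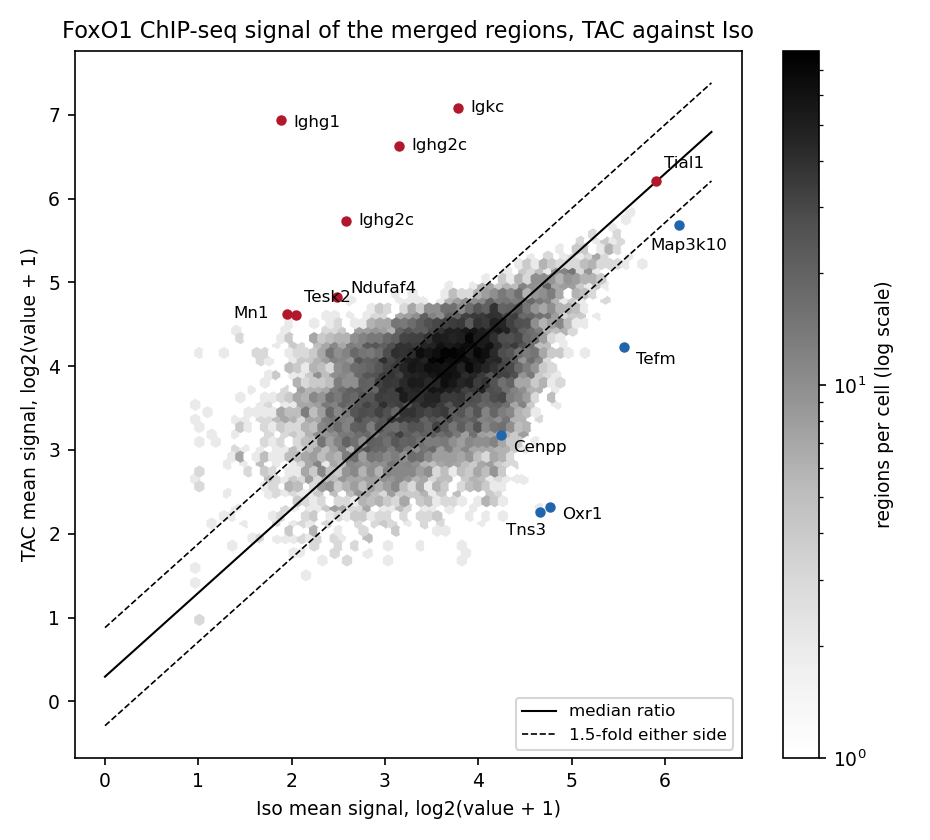
FoxO1 mean signal of the 16126 merged regions in TAC (vertical axis) against Iso (horizontal axis), both as log2(value + 1); shading gives the number of regions per cell on a log scale, and labelled points are regions named in the text. The solid line is the median ratio and the dashed lines lie 1.5-fold either side of it; the 4 immunoglobulin regions lie far above the cloud.

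CpG islands were on the TAC side and distant regions without one on the Iso side. CpG islands outside promoters had the highest median centred ratio of the 7 region classes, 0.19 (95% order-statistic interval 0.14 to 0.23, 1186 regions). Promoters with a CpG island, within 1000 bp of a listed start site, had 0.11 (0.10 to 0.13, 7541 regions), with 19.0% of regions higher and 8.37% lower. Regions with neither a gene nor a CpG island had -0.32 (-0.36 to -0.30, 1769 regions), with 9.67% higher and 36.1% lower. Distal gene bodies, over 10000 bp into a gene and without an island, had -0.25 (-0.28 to -0.21, 2342 regions). Promoters without an island had -0.09 and gene bodies nearer the start site 0.08, so at promoters the medians with and without an island had opposite signs.

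The regions at the ends of the ratio differed in kind. Of the 2738 higher in TAC, 59.6% lay at promoters (95% Wilson interval 57.8 to 61.5) and 63.3% on CpG islands. Of the 2807 lower in TAC, 31.8% lay at promoters (30.2 to 33.6) and 25.2% on islands, against 54.0% and 54.1% of all regions. At 4-fold the promoter shares were 46.5% of the 71 higher regions and 9.41% of the 85 lower ones. Summed over a class, peak depths in TAC were 1.33 times those in Iso at islands outside promoters and 0.93 times those in Iso at regions with neither gene nor island, against 1.13 over all regions.

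**Figure D2:**
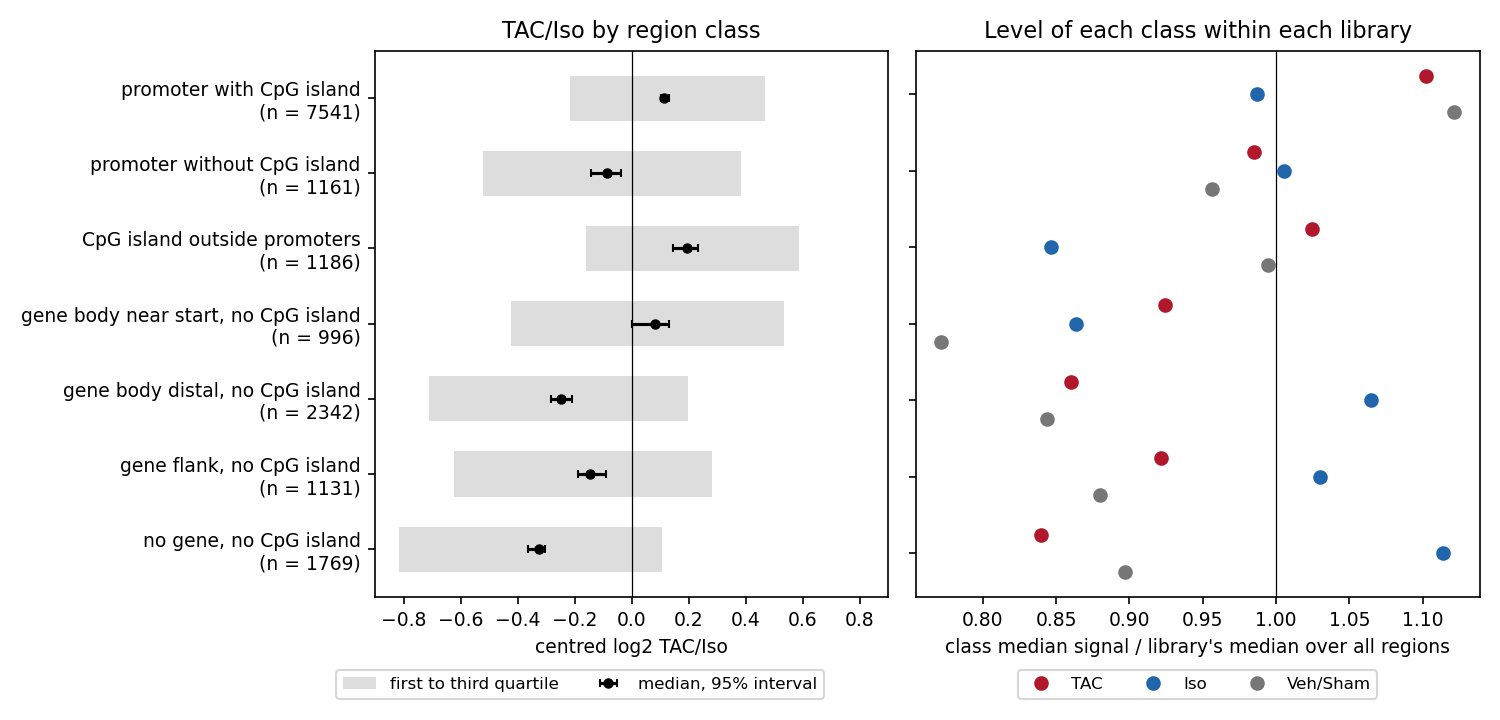
Left, the centred log2 TAC/Iso ratio of the 7 region classes (grey bars, lower to upper quartile; points, medians with 95% order-statistic intervals). Right, the median mean signal of each class divided by the same library's median over all regions, for TAC, Iso and Veh/Sham; in the distal and gene-free classes Iso lies at 1.06 and 1.11 and both other libraries below 0.90.

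Regions more than 250 and up to 5000 bp from a start site had higher ratios than those at the start itself, with or without an island. Distances run from the centre of a region, so a long region more than 250 bp away can still cover the start. CpG island regions within 250 bp of a start had a median centred ratio of 0.03 (5012 regions, interval 0.01 to 0.05). Island regions more than 250 and up to 5000 bp away, here called shoulders, had 0.31 (3119 regions, 0.28 to 0.34), and 30.5% of them were at least 1.5-fold higher in TAC, against 4.81% lower. Directions were taken over regions with and without an island together. Regions centred more than 250 and up to 1000 bp downstream of a start had 0.39 (1861 regions), and those at the same distance upstream 0.12 (1193 regions). Those from 250 bp upstream to the start had -0.06 (2706 regions), and those up to 250 bp downstream 0.07 (2942 regions). Start-site regions without an island had -0.26 (636 regions). Those without an island more than 250 and up to 5000 bp away had 0.06 (1677 regions), with 23.7% higher and 17.9% lower. The rise away from the start was thus not particular to islands. Beyond 20000 bp from any start, or with no gene, regions without an island had -0.31 (3680 regions, -0.34 to -0.29), with 9.65% higher and 34.5% lower. These distance groups were chosen after the values were seen.

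In levels, the shoulder regions had a median of 14.7 in TAC, against 8.64 in Iso and 8.6 in Veh/Sham. The distant regions had a median of 11.8 in TAC, against 12.0 in Iso and 7.57 in Veh/Sham. Divided by each library's own median, the shoulders stood at 1.05 in TAC, 0.79 in Iso and 0.99 in Veh/Sham, and the distant regions at 0.84 in TAC, 1.09 in Iso and 0.87 in Veh/Sham. In both groups TAC and Veh/Sham were near each other and Iso stood apart. The start-site islands did not share this order, at 1.12 in TAC, 1.08 in Iso and 1.18 in Veh/Sham.

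The same contrast appeared between regions of a single gene. In 694 genes with an island region at the start and another on the shoulder, the shoulder's centred ratio exceeded that of the start by a median of 0.27 (quartiles -0.30 and 0.82), and was the higher in 436 genes (62.8%). In 293 genes with a start region and a region without island over 20000 bp away, the distant region lay below the start region by a median difference of -0.62 (quartiles -1.13 and -0.06) and was the higher in 66 genes (22.5%). The genes overlap between the groups, and the regions share 2 libraries, so the counts are not those of independent trials.

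The strongest regions were slightly on the Iso side and the weakest on the TAC side. Veh/Sham signal, which is on neither side of the ratio, was used to order the regions into 5 equal groups. The median centred ratio was 0.13, 0.06, 0.05, -0.04 and -0.10 from the weakest group to the strongest. The share at least 1.5-fold higher in TAC was 28.3% in the weakest group and 5.40% in the strongest, and the share lower 20.6% and 14.9%. Only 0.12% of regions in the weakest group were called in Veh/Sham, against 98.5% in the strongest. The weakest group thus entered the table almost wholly through calls in other libraries. Among these, TAC had 7261 calls against 5808 in Iso, and calls in the 2 unused libraries of the table were not counted. The part of such calls in the medians was not tested. Median levels in the weakest group were 10.4 in TAC, 7.43 in Iso and 3.88 in Veh/Sham, and in the strongest 19.7 in TAC, 17.0 in Iso and 15.0 in Veh/Sham. Among the 500 regions with the highest mean of TAC and Iso, which uses the compared values, the median was -0.21, with 7 regions higher and 74 lower, although 80.4% of them lay at promoters. Within each level the position groups kept their order, since the island shoulders had medians of 0.48, 0.45, 0.38, 0.25 and 0.09 over the 5 groups, and the distant regions -0.22, -0.30, -0.30, -0.38 and -0.36. Start-site islands lay between, with 0.13, 0.14, 0.08, 0.05 and -0.05.

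**Figure D3:**
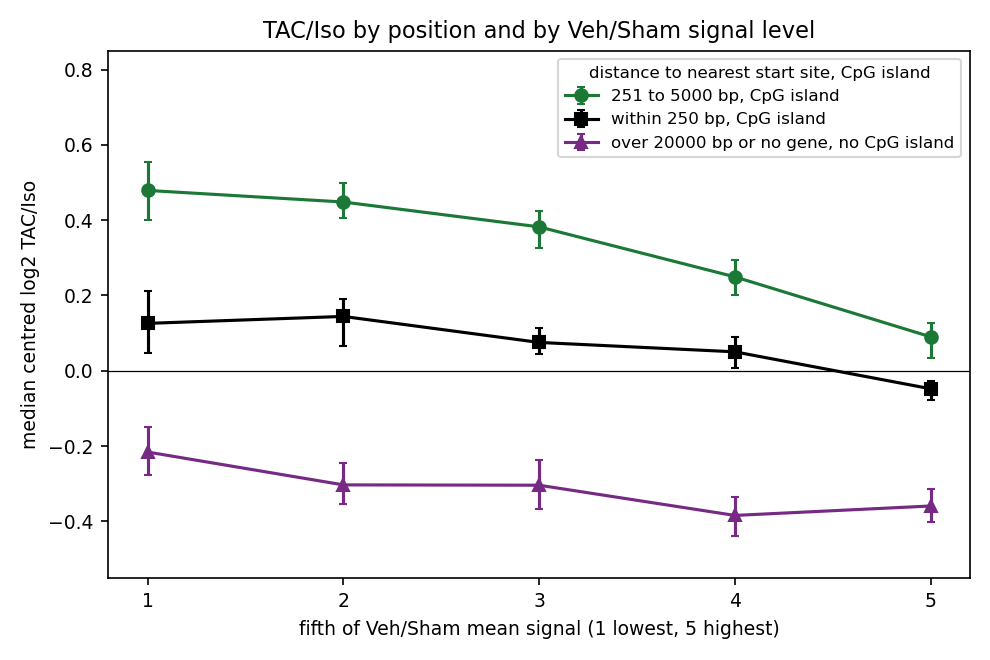
Median centred log2 TAC/Iso ratio (vertical axis, with 95% order-statistic intervals) over 5 equal groups of Veh/Sham signal from weakest to strongest (horizontal axis), for island regions more than 250 and up to 5000 bp from a start, island regions within 250 bp, and regions without island over 20000 bp away or without a gene. The shoulders lie above the start sites and the distant regions below them in all 5 groups, and both island series are lower in the strongest group than in the weakest.

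Length and chromosome showed smaller differences in the median, but the spread of ratios differed with length. Medians over 5 equal groups of region length lay between -0.06 and 0.06, and by chromosome between -0.13 (chromosome 13) and 0.07 (chromosomes 5 and 11). In the shortest group (median length 214 bp) 25.4% of regions were at least 1.5-fold higher and 24.6% lower. In the longest group (median length 941 bp) the shares were 8.56% and 5.05%. Regions under 2000 bp apart, which share the libraries, had ratios of the same sign in 56.2% of 3703 pairs (Pearson r 0.08 across pairs). At 100000 bp to 1000000 bp the share was 51.5% of 3365 pairs (r 0.0054). Relative to the library medians, Veh/Sham lay between TAC and Iso in 54.5% of the regions higher in TAC and in 57.3% of those lower. It lay nearer to TAC than to Iso in 49.2% and 48.0% of them, so at single regions Veh/Sham was as often near the one as the other.

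Promoters of high GC content had higher ratios. For 7132 of the 8702 promoter regions a RefSeq window of 300 bases lay within 1000 bp. Over 5 equal groups of window GC content, the median centred ratio was -0.09, 0.04, 0.15, 0.17 and 0.24 from lowest to highest. Within island regions at most 250 bp from a start it was -0.08, -0.02, 0.06, 0.12 and 0.09. On shoulders up to 1000 bp away it was 0.24, 0.33, 0.31, 0.35 and 0.39, so the shoulders exceeded the start sites in each of the 5 groups. The groups were cut within each set, so their GC content was not matched. The highest group spanned 69 to 88% GC at start sites and 75.3 to 87.3% on shoulders. GC content is that of the window and not of the region itself.

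Few promoter windows held the forkhead core. TGTTTAC, searched on both strands (GTAAACA on the other), was found in 2.75% of the 5630 windows that a region overlapped and in 3.65% of all 32851 windows. From the lowest to the highest of 5 equal groups of centred ratio, the share was 3.02%, 2.84%, 3.46%, 2.40% and 2.04% of 1126 windows each. It was 1.56% of the 707 regions at least 1.5-fold higher in TAC (95% Wilson interval 0.87 to 2.76), against 2.52% of the 636 lower ones (1.55 to 4.05), and the intervals overlapped. Regions with the core had a median centred ratio of -0.04 (155 regions) and those without 0.03 (5475 regions). The share did differ with the level of signal: it was 6.31% in the strongest of 5 groups of mean TAC and Iso signal (95% Wilson interval 5.03 to 7.88), against 1.33% in the weakest (0.81 to 2.19). A match is a description of these letters and not a site. CAAAACAA, searched in the same way, was found in 1.67% of overlapped windows, against 2.51% of all windows. Among the 2606 regions from which sequences were taken, the strongest with the core within the 250 bases before a start were at Ccni, cyclin I (chr5:93206496-93206745, minus strand), Hbp1, a transcriptional repressor of the cell cycle (chr12:31950246-31950495, minus strand), Vkorc1, the vitamin K epoxide reductase (chr7:127895618-127895867, minus strand), and Txnip, an inhibitor of thioredoxin and glucose uptake (chr3:96557707-96557956, plus strand). Here the capitals mark the core.

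Ccni: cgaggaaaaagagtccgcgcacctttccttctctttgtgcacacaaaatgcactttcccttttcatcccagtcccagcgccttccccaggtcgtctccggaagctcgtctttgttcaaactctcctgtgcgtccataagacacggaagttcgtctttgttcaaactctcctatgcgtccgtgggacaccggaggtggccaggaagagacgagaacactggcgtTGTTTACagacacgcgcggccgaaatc
Hbp1: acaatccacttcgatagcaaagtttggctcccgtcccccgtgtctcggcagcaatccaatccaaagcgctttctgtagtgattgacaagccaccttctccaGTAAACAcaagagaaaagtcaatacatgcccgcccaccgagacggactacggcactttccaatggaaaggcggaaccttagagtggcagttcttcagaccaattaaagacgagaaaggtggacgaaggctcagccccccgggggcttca
Vkorc1: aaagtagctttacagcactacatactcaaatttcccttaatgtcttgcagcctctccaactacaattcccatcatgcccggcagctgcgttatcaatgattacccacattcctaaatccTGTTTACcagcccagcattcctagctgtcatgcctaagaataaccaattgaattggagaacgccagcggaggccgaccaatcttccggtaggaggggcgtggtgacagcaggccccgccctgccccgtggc
Txnip: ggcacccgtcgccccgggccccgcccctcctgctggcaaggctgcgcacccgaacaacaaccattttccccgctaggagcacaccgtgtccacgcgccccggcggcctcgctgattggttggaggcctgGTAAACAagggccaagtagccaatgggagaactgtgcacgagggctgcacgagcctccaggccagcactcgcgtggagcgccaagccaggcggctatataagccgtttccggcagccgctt

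Ccni had a mean signal of 64.7 in TAC, 50 in Iso and 53.0 in Veh/Sham, with a centred ratio of 0.07. Hbp1 had 51.9 in TAC, 46.2 in Iso and 35.7 in Veh/Sham (-0.13), and Vkorc1 43.7 in TAC, 47.4 in Iso and 27.7 in Veh/Sham (-0.41). Txnip had 41.9 in TAC, 30.5 in Iso and 31.4 in Veh/Sham (0.15). All 4 lay within 1.5-fold of the median ratio.

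Among regions of at least median signal, the 4 with the highest ratios lay at immunoglobulin genes, which encode the constant parts of antibody chains. Ighg1, a heavy chain gene (chr12:113328871-113329836, inside the gene), had a mean signal of 121.1 in TAC and 2.70 in Iso and was listed at 0 in Veh/Sham. Its peak depths were 190 in TAC and 6 in Iso (ratio 31.7, exact 95% counting interval 14.3 to 87.4). Igkc, the kappa light chain (chr6:70726320-70726865), had 133.9 in TAC, 12.8 in Iso and 3.94 in Veh/Sham, with a peak ratio of 10.6 (6.86 to 17.3). The Ighg2c region 141 bp from its start (chr12:113288540-113289043) had 98.0 in TAC, 7.88 in Iso and 1 in Veh/Sham, and the one 865 bp from it (chr12:113287892-113288242) had 52.1 in TAC, 5 in Iso and 0 in Veh/Sham. TAC was the highest library at all 4 and Iso lay above Veh/Sham at each.

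Other markers of B cells and plasma cells had smaller ratios, and these lay on both sides. Of 32 list genes 11 had a region, with a median centred ratio of 0.60, 6 higher and 1 lower (5 and 1 with each gene's region nearest its start, at a median of 0.35). Their mean signals summed to 481.3 in TAC, 109.2 in Iso and 89.5 in Veh/Sham. Without the 3 immunoglobulin genes the sums were 128.3 in TAC, 85.8 in Iso and 84.5 in Veh/Sham, and the median was 0.27 with 3 higher and 1 lower of 8. Over all genes 12.7% were higher and 13.6% lower. Xbp1, a driver of plasma cell secretion that many cells express, had 20.2 in TAC, 5.50 in Iso and 13.5 in Veh/Sham (centred ratio 1.41). Prdm1, a repressor that fixes plasma cell fate, had 20.1 in TAC, 9.40 in Iso and 3.80 in Veh/Sham (0.73). Cd79a, part of the B cell receptor, had 16.6 in TAC, 11.6 in Iso and 15.6 in Veh/Sham (0.19), and Tnfrsf17, a receptor of plasma cells, 5.86 in TAC, 14.4 in Iso and 2.86 in Veh/Sham (-1.46). No region was assigned to Ms4a1, Pax5, Ighm or Mzb1. The part of these cells in the immunoglobulin signal was not tested.

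Outside the immunoglobulin genes, the regions with the highest counting bounds on the TAC side were mostly in CpG islands near a start. The rule took regions of at least median signal (8070 regions) by the bounds of their peak ratio, so the values describe the ends of a distribution. Tesk2, a protein kinase, had a region 247 bp from its start (chr4:116721088-116721316) with 23.5 in TAC, 3.13 in Iso and 1.25 in Veh/Sham (centred ratio 2.28). Cdv3 had 23.6 in TAC, 3.00 in Iso and 3.88 in Veh/Sham in an island 1089 bp into the gene (2.33). Mn1, a transcriptional coregulator, had 23.6 in TAC, 2.88 in Iso and 9.13 in Veh/Sham (2.37) in an island 1376 bp upstream. TAC was the highest library in each.

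Genes of mitochondria were among them. Ndufaf4, an assembly factor of respiratory complex I (chr4:24898202-24898455, 245 bp from its start), had 27.4 in TAC, 4.63 in Iso and 7.25 in Veh/Sham (2.04; peak ratio 5.33, 2.20 to 15.6). Minos1, a subunit of the complex that shapes the cristae (chr4:139130458-139130668, 550 bp from its start), had 23.7 in TAC, 4 in Iso and 6.43 in Veh/Sham (2.01). The region of Minos1 nearest its start had a centred ratio of 0.09. Sdc3, a heparan sulfate proteoglycan, had 21.9 in TAC, 3.88 in Iso and 3.75 in Veh/Sham (1.94), and Dnmt1, the maintenance DNA methyltransferase, 22.0 in TAC, 3.75 in Iso and 3.86 in Veh/Sham (1.98) in an island 7518 bp into the gene. Poli, a translesion polymerase, and Pcdh1, a protocadherin whose region lay outside islands, had centred ratios of 2.20 and 2.16.

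On the Iso side the corresponding regions were mostly far from a start site. Oxr1, an oxidation resistance gene, had a region 385101 bp into the gene (chr15:41832480-41832686) with 4 in TAC, 26.3 in Iso and 10.3 in Veh/Sham (-2.74; peak depths 5 and 30, ratio 0.17, 0.05 to 0.43). Tns3, a tensin of focal adhesions, had 3.80 in TAC, 24.3 in Iso and 5.29 in Veh/Sham (-2.69) 218189 bp into the gene. Prkcq, protein kinase C theta, had 4.50 in TAC, 23.3 in Iso and 5.50 in Veh/Sham (-2.44). Veh/Sham was near TAC in Tns3 and Prkcq and between the models in Oxr1.

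A pair of related secreted serine proteases lay on this side. Htra1 had 5.63 in TAC, 22.3 in Iso and 15.3 in Veh/Sham (-2.11) 23876 bp into the gene (chr7:130959943-130960216). Htra3 had 4 in TAC, 25 in Iso and 15.5 in Veh/Sham (-2.67) in a region downstream of the gene, 32129 bp from its start (chr5:35647523-35647783). In both, Veh/Sham was nearer to Iso. Deeply covered regions on the Iso side were those of Tefm, the mitochondrial transcription elongation factor (chr11:80148364-80148724, also assigned to Adap2), with 17.7 in TAC, 46.2 in Iso and 40.5 in Veh/Sham (-1.63), and at the start of B230118H07Rik (chr2:101628559-101629247), also assigned to the recombinase gene Rag2, with 22.7 in TAC, 39.7 in Iso and 30.1 in Veh/Sham (-1.07). These 2 regions were called in all 3 libraries.

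The lowest promoter regions lacked CpG islands. Taking 1 region per gene, the 6 lowest well-covered promoter regions were those of Mill2, an MHC class I-like gene (-2.05), Arhgef6, an exchange factor for Rac and Cdc42 (-1.93), Art3 with the chemokine gene Cxcl9 (-1.90), Fut10 (-1.82), Phkg2 (-1.77) and Zfp114 (-1.70), and all 6 were without an island. Arhgef6 had 6.71 in TAC, 22.9 in Iso and 6.59 in Veh/Sham, and Zfp114, a zinc finger gene, 7.38 in TAC, 21.1 in Iso and 1.80 in Veh/Sham. Outside the immunoglobulin genes, and again with 1 region per gene, the 4 highest well-covered promoter regions, those of Tesk2, Poli, Ndufaf4 and Minos1, all lay on islands. Among regions with no gene and no island, the highest was chr6:28929302-28929587, with 26.3 in TAC, 5.33 in Iso and 1.78 in Veh/Sham, and the lowest chr14:97559650-97559931, with 4.63 in TAC, 28.8 in Iso and 9.38 in Veh/Sham.

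Most of the strongest regions lay within 1.5-fold of the median ratio. Tial1, an RNA-binding protein, had 73.2 in TAC, 58.8 in Iso and 54.9 in Veh/Sham (0.02), and Btrc, the beta-TrCP ubiquitin ligase subunit, 64.5 in TAC, 63.3 in Iso and 39.5 in Veh/Sham (-0.27). Rangap1, the Ran GTPase activator, had 59.3 in TAC, 48.4 in Iso and 40.0 in Veh/Sham (-0.01). Among the 10 strongest, the exception besides the immunoglobulin regions was Map3k10, a kinase of the JNK pathway, with 50.5 in TAC, 70.3 in Iso and 67.3 in Veh/Sham (-0.76; peak depths 96 and 148, ratio 0.65, 0.50 to 0.84). The region 444 bp from the start of Abcb8, a mitochondrial transporter, which was also assigned to Nos3, had 51.9 in TAC, 55.2 in Iso and 48.3 in Veh/Sham (-0.38).

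At the Foxo genes themselves, regions of 1 gene had different ratios and 1 distal region of Foxo3 had a ratio below the median of all regions. None of the regions was centred within 250 bp of a start. At lengths of 795 and 803 bp, the regions centred 305 bp from the Foxo1 start and 345 bp from the Foxo3 start covered it. Foxo1 had 3 regions. The one 305 bp upstream of its start (chr3:52267635-52268430) had 19.5 in TAC, 13.8 in Iso and 13.8 in Veh/Sham (0.18), and the one 1405 bp downstream (chr3:52269361-52270123) had 19.8 in TAC, 7.00 in Iso and 9.21 in Veh/Sham (1.08; peak ratio 2.33, 1.15 to 5.04). The region between them, 358 bp downstream, was called in none of the 3 libraries and had 6.07 in TAC, 2.27 in Iso and 2.85 in Veh/Sham (0.82).

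Foxo3, which shares many targets with Foxo1, had 7 regions. Those 345 bp downstream and 860 bp upstream of its start had centred ratios of 0.03 and 0.02. The one 1912 bp downstream (chr10:42274714-42274947) had 18.1 in TAC, 4.50 in Iso and 7.63 in Veh/Sham (1.5; peak ratio 3.33, 1.29 to 10.1). Its strongest region, 25287 bp downstream (chr10:42250998-42251913), had 21.2 in TAC, 28.7 in Iso and 24 in Veh/Sham (-0.71). The peak ratio there was 0.72 (0.51 to 1.02), an interval below the 1.13 of the summed depths. The other distal region, 71575 bp downstream, had 8.67 in TAC, 6.17 in Iso and 11.0 in Veh/Sham (0.14), and the islands 1357 bp downstream and 1785 bp upstream had centred ratios of 0.45 and 0.39. Foxo4 had 15.5 in TAC, 7.93 in Iso and 10.6 in Veh/Sham (0.59) and Foxo6 12.7 in TAC, 7.40 in Iso and 8.50 in Veh/Sham (0.41), each in 1 promoter region.

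**Figure D4:**
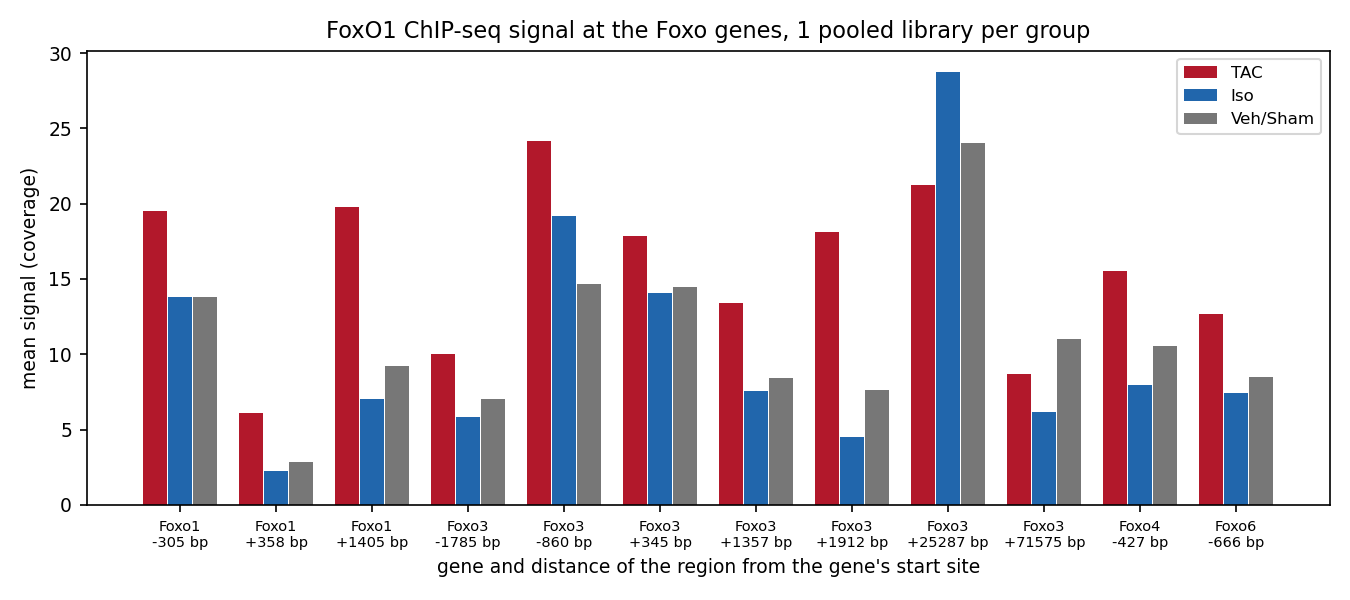
Mean FoxO1 signal (vertical axis, coverage) in TAC, Iso and Veh/Sham at the regions assigned to Foxo1, Foxo3, Foxo4 and Foxo6, ordered by gene and by distance from the gene's start site (horizontal axis); each bar is 1 pooled library. TAC exceeds Iso most at +1405 bp of Foxo1 and +1912 bp of Foxo3, and Iso is the highest only at +25287 bp of Foxo3.

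Gene families mixed both directions. Each gene was represented by its assigned region with the highest mean of TAC and Iso, and 1 region can stand for several genes. Over all 11718 genes the median centred ratio was -0.01, with 12.7% at least 1.5-fold higher in TAC and 13.6% lower. With each gene's region nearest its start instead, the median was 0.03, with 15.1% higher and 12.7% lower. The choice of region mattered for the lists: which of higher and lower was the more frequent turned in 12 of 38 lists, so counts with the nearest region are given after each list's own. Of 38 lists, 30 had at least 10 genes with a region, and 29 of these medians lay between -0.22 and 0.26, the exception being the B cell list. The genes named below are the ends of their lists and pass the 1.5-fold rule unless given otherwise; medians are those of the strongest regions unless the nearest is named.

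FoxO target genes had members at both ends. Of 52 genes 41 had a region, with a median of 0.11, 5 higher and 6 lower (5 and 4 with the nearest region). Irs2, the insulin receptor substrate that FoxO1 induces, had 18 in TAC, 5.70 in Iso and 9.75 in Veh/Sham (1.21; peak ratio 2.82, 1.38 to 6.21) 383 bp from its start. Rictor, a subunit of the kinase complex that activates Akt, had 14.0 in TAC, 4.73 in Iso and 4.8 in Veh/Sham (1.09), although its region nearest the start had 0.33. Tcf7l2, an effector of Wnt signalling, had 20 in TAC, 8.50 in Iso and 9.10 in Veh/Sham (0.85). On the Iso side, Insr had 11.3 in TAC, 26.1 in Iso and 18 in Veh/Sham (-1.43; peak ratio 0.39, 0.19 to 0.77) in a region 63906 bp into the gene, and its region nearest the start had -0.29. Sod2, the mitochondrial superoxide dismutase, had 11.2 in TAC, 20.1 in Iso and 10.1 in Veh/Sham (-1.09), and Sesn3, a sestrin that restrains mTOR, 9.75 in TAC, 17.5 in Iso and 5.06 in Veh/Sham (-1.08).

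Insulin receptor to Akt signalling had a region in 34 of 38 genes, with 6 higher and 2 lower (7 and 2 with the nearest region) and a median of 0.01. Irs1 had 25.5 in TAC, 11.5 in Iso and 18 in Veh/Sham (0.79; peak ratio 2.67, 1.44 to 5.20) in a region 8058 bp into the gene, while its nearest region had -0.45. Pik3cb and Pik3r1, subunits of PI3 kinase, had 0.78 and 0.76.

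Adrenergic, G protein and cAMP genes, the pathway that isoproterenol engages, had a median of -0.03 over 39 of 50 genes, with 6 higher and 8 lower (5 and 4 with the nearest region, at a median of 0.13). Adrbk1, the kinase that desensitises beta receptors, had 23.3 in TAC, 6.89 in Iso and 6.78 in Veh/Sham (1.33; peak ratio 3.62, 1.62 to 9.18) in a region 11362 bp from its start. Prkar1a, a regulatory subunit of protein kinase A, had 23.9 in TAC, 8.88 in Iso and 6.13 in Veh/Sham (1.04) at its start. Gnas, the stimulatory G protein subunit, had 7.14 in TAC, 13.4 in Iso and 4 in Veh/Sham (-1.12), with 0.52 in its region nearest the start. Camk2d, the main cardiac calmodulin kinase, had 9.88 in TAC, 17.5 in Iso and 4.63 in Veh/Sham (-1.06) 96537 bp into the gene and 0.20 nearest the start. Pde3a, a cardiac phosphodiesterase, had 3.57 in TAC, 6.00 in Iso and 8.57 in Veh/Sham (-0.91). The Gnas and Pde3a regions were called in neither model.

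Calcineurin and NFAT genes, which carry pressure overload signals to the nucleus, had 4 higher and 3 lower of 18 with a region of 19 (median 0.13, nearest region 5 and 2 with a median of 0.42). Nfatc1 had 21.7 in TAC, 8.23 in Iso and 6.14 in Veh/Sham (1.0), and Ppp3r1, the regulatory subunit of calcineurin, 9.18 in TAC, 17.0 in Iso and 12.1 in Veh/Sham (-1.12). MAP kinase genes had 8 higher and 3 lower of 34 with a region of 38 (median 0.05, nearest region 6 and 3). Mapkapk2, the kinase downstream of p38, had 19.5 in TAC, 5.36 in Iso and 10.9 in Veh/Sham (1.39), and Mapk9, which is JNK2, 21.4 in TAC, 7.50 in Iso and 5.6 in Veh/Sham (1.1). Araf had -2.14 through a region that it shared with Timp1 and Syn1 and that had 2.14 in TAC, 10.3 in Iso and 9 in Veh/Sham.

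Among heart muscle lists, cardiac transcription factors had a region in 24 of 32 genes (median 0.19), with 2 higher and 3 lower (4 and 3 with the nearest region). Mkl2 and Srf, partners in serum response, had 0.82 and 0.60, and Mef2c, a factor of hypertrophic growth, had 14.5 in TAC, 21.3 in Iso and 14.7 in Veh/Sham (-0.82) 68181 bp into the gene, with 0.16 nearest the start. Sarcomere and Z-disc genes had a region in 13 of 36 (median 0.06), with 1 higher and 3 lower (1 and 1 with the nearest region). Tpm1, a tropomyosin, had 16.6 in TAC, 8.12 in Iso and 11.2 in Veh/Sham (0.65), and Tnni3, cardiac troponin I, 12.5 in TAC, 18.9 in Iso and 3.60 in Veh/Sham (-0.85). Fetal and hypertrophic stress genes had 2 higher and 5 lower of 20 with a region of 27 (median -0.08, nearest region 6 and 5 with a median of 0.27). Myc had 16.1 in TAC, 6.92 in Iso and 9.23 in Veh/Sham (0.81). Mt1 and Mt2, metallothioneins, shared 1 region at the start of Mt1 with 12.9 in TAC, 17.7 in Iso and 8.70 in Veh/Sham (-0.72).

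Ion channel and calcium genes had 1 higher and 3 lower of 19 with a region of 40 (median 0.11, nearest region 2 and 2). Letm1, a mitochondrial inner membrane protein of ion exchange, had 10.8 in TAC, 20.7 in Iso and 19.2 in Veh/Sham (-1.18; peak ratio 0.47, 0.27 to 0.79) at its start. Itpr2, an inositol trisphosphate receptor, had -1.25 in a region 230536 bp into the gene and 0.01 nearest the start. Extracellular matrix and fibrosis genes had 2 higher and 8 lower (25% of 32 genes with a region, of 50 listed; 4 and 6 with the nearest region), at a median of 0.11. Smad4, the common TGF-beta effector, had 22.8 in TAC, 10 in Iso and 7.67 in Veh/Sham (0.82). Besides Htra1, the low members included Timp1, an inhibitor of matrix proteases, through the region it shared with Araf, and Adamts9, a matrix protease (-1.69), Tgfbr1, a TGF-beta receptor (-1.26), and Col1a1, a chain of collagen I, with 6.14 in TAC, 12.1 in Iso and 11.1 in Veh/Sham (-1.17).

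Metabolic lists differed in which tail was longer. Fatty acid oxidation and its regulators had 8 higher (25%) and 1 lower of 32 genes with a region, of 39 listed, at a median of 0.01 (9 and 2 with the nearest region, at 0.18). Nrf1, a factor for mitochondrial genes, had 10.6 in TAC, 3.50 in Iso and 5.81 in Veh/Sham (1.07), Pparg 22.3 in TAC, 8.67 in Iso and 2.75 in Veh/Sham (0.98) 101942 bp from its start, and Hadha, a beta-oxidation enzyme, 17.4 in TAC, 8.69 in Iso and 12.3 in Veh/Sham (0.63). Lpl, lipoprotein lipase, had -1.06 in a region downstream of the gene, 28261 bp from its start. Glycolysis and glucose uptake had the highest median of the lists with at least 10 genes apart from the B cell list, 0.26, with 4 higher and 3 lower of 28 with a region of 36 (4 and 2 with the nearest region). Gapdh had 19.2 in TAC, 8.6 in Iso and 8.55 in Veh/Sham (0.78; peak ratio 2.54, 1.30 to 5.26), and Tpi1 14.3 in TAC, 4.75 in Iso and 6.58 in Veh/Sham (1.12). Pdk4, the kinase that shuts off pyruvate dehydrogenase and a known FoxO1 target, had 25.2 in TAC, 35.5 in Iso and 26.9 in Veh/Sham (-0.77; peak ratio 0.51, 0.37 to 0.71) at its promoter.

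Respiratory chain and ATP synthase genes had 6 higher and 5 lower of 64 with a region of 77 (median -0.09, nearest region 4 and 8), nearly all at promoters. Cox5b had 19.3 in TAC, 5.36 in Iso and 7.09 in Veh/Sham (1.38) and Cox6b1 7.14 in TAC, 19.0 in Iso and 2.14 in Veh/Sham (-1.59), both subunits of cytochrome oxidase. Mitochondrial assembly, dynamics and import genes had 3 higher and 5 lower of 45 with a region of 54 (median -0.07, nearest region 4 and 6). Tomm70a, an import receptor, had 23.1 in TAC, 8.11 in Iso and 7.67 in Veh/Sham (1.11). Chchd3, a cristae protein, had 19.8 in TAC, 35.9 in Iso and 23.7 in Veh/Sham (-1.12) and Opa1, which fuses inner membranes, 14.5 in TAC, 22.2 in Iso and 14.0 in Veh/Sham (-0.88). Antioxidant genes had 4 higher and 6 lower of 26 with a region of 33 (median -0.17, nearest region 4 and 3 with a median of 0.09). Sod1 was on the TAC side with 26.5 in TAC, 11.3 in Iso and 12.1 in Veh/Sham (0.86), opposite to Sod2, and Oxr1 was the lowest member.

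Proteasome subunits had 7 higher and 4 lower of 41 with a region of 45 (median 0.17, nearest region 6 and 5 with a median of 0.06), led by Psmb4 with 12.4 in TAC, 3.27 in Iso and 8.54 in Veh/Sham (1.35). F-box and cullin ligases had 9 higher and 6 lower of 56 with a region of 61 (median -0.02, nearest region 12 and 5). Vhl, which marks hypoxia-inducible factors for degradation, had 19.1 in TAC, 4 in Iso and 16.0 in Veh/Sham (1.71; peak ratio 4.4, 1.63 to 14.9), so Iso was the low library. Autophagy and lysosome genes had 5 higher and 4 lower of 40 with a region of 46 (median -0.04, nearest region 4 and 4). Gabarapl2, a membrane tag of autophagosomes, had 22.6 in TAC, 8.50 in Iso and 11.6 in Veh/Sham (1.02), and Lamp1, a lysosomal membrane protein, 4.33 in TAC, 16.3 in Iso and 4.67 in Veh/Sham (-2.0). Cytosolic ribosomal protein genes had 7 higher and 5 lower of 73 with a region of 79 (median 0.07, nearest region 10 and 5), with Rpsa the highest (0.79). Translation factors had 8 higher and 7 lower of 59 with a region of 64 (median 0.04, nearest region 7 and 9).

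Cyclins, CDKs and E2F genes had 6 higher and 8 lower of 51 with a region of 59 (median 0.06, nearest region 11 and 6 with a median of 0.14). Ccnb1, cyclin B1, had 20.5 in TAC, 1.67 in Iso and 1.33 in Veh/Sham (2.72; peak depths 22 in TAC and 3 in Iso, ratio 7.33, 2.20 to 38.3) at its promoter. Cdc6, a replication licensing factor, had 18.2 in TAC, 28.3 in Iso and 17.1 in Veh/Sham (-0.90). Apoptosis genes had 3 higher and 5 lower of 39 with a region of 44 (median 0.15, nearest region 7 and 3 with a median of 0.22), with Ripk1 (1.01), Bid (0.97) and Apaf1 (0.85) higher and Tnfrsf10b, a death receptor, lowest (-1.42). Clock genes had 2 higher and 3 lower of 22 with a region of 24 (median -0.09, nearest region 3 and 2). Rora had 22.1 in TAC, 4.43 in Iso and 3.00 in Veh/Sham (1.80) 471663 bp into the gene and 0.01 nearest its start. Nr1d1, which is REV-ERB alpha, lay within 1.5-fold at -0.53, with a peak ratio of 0.58 (0.43 to 0.78).

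Immediate early factors had 2 higher and 1 lower of 25 with a region of 26 (median 0.23, nearest region 9 and none with a median of 0.35), led by Egr3 with 23.9 in TAC, 8.57 in Iso and 10.7 in Veh/Sham (1.08). Krueppel-like factors had 2 higher, Klf11 (0.95) and Klf4 (0.80), and none lower of 12 with a region of 17 (median -0.17, nearest region 3 and 1). Notch genes had 5 higher and 1 lower of 27 with a region of 30 (median -0.04, nearest region 5 and 1), from Jag2 (1.30) to Dll4 (-0.94), both ligands. Hypoxia genes had 2 higher and 2 lower of 22 with a region of 26 (median -0.22, nearest region 4 and 3), and thyroid hormone genes 1 higher, Rxrb (0.63), and none lower of 8 with a region of 18 (nearest region 2 and none). Histone genes had 5 higher and 4 lower of 36 with a region of 43 (nearest region 2 and 6), but those genes shared 19 regions.

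Among cell type markers, endothelial genes had the most regions, in 31 of 34 genes, with 6 higher and 4 lower and a median of -0.02 (nearest region 6 and 2 with a median of 0.30). Egfl7 had 23.2 in TAC, 9.03 in Iso and 9.63 in Veh/Sham (0.97), and Kdr, the VEGF receptor, 17.4 in TAC, 25 in Iso and 14.8 in Veh/Sham (-0.79; peak ratio 0.47, 0.27 to 0.79) 16255 bp into the gene. Fibroblast markers had 3 higher and 3 lower of 8 with a region of 22, at a median of -0.16, from Pi16 (1.25) to Col1a1. With the nearest region they had 1 higher and 6 lower, at a median of -0.69. Myeloid markers had 2 higher and 1 lower of 8 with a region of 27 (nearest region none and 1). T cell markers had none higher and 2 lower of 5 with a region of 18, smooth muscle markers none past the rule of 6 with a region of 14 (nearest region 1 and none), and neuronal markers none higher and 2 lower of 3 with a region of 24. Liver markers had none higher and 4 lower of 5 with a region of 20, and the 5 regions summed to 83.2 in TAC, 114.4 in Iso and 90.5 in Veh/Sham. Lists with so few regions are given for completeness.

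**Figure D5:**
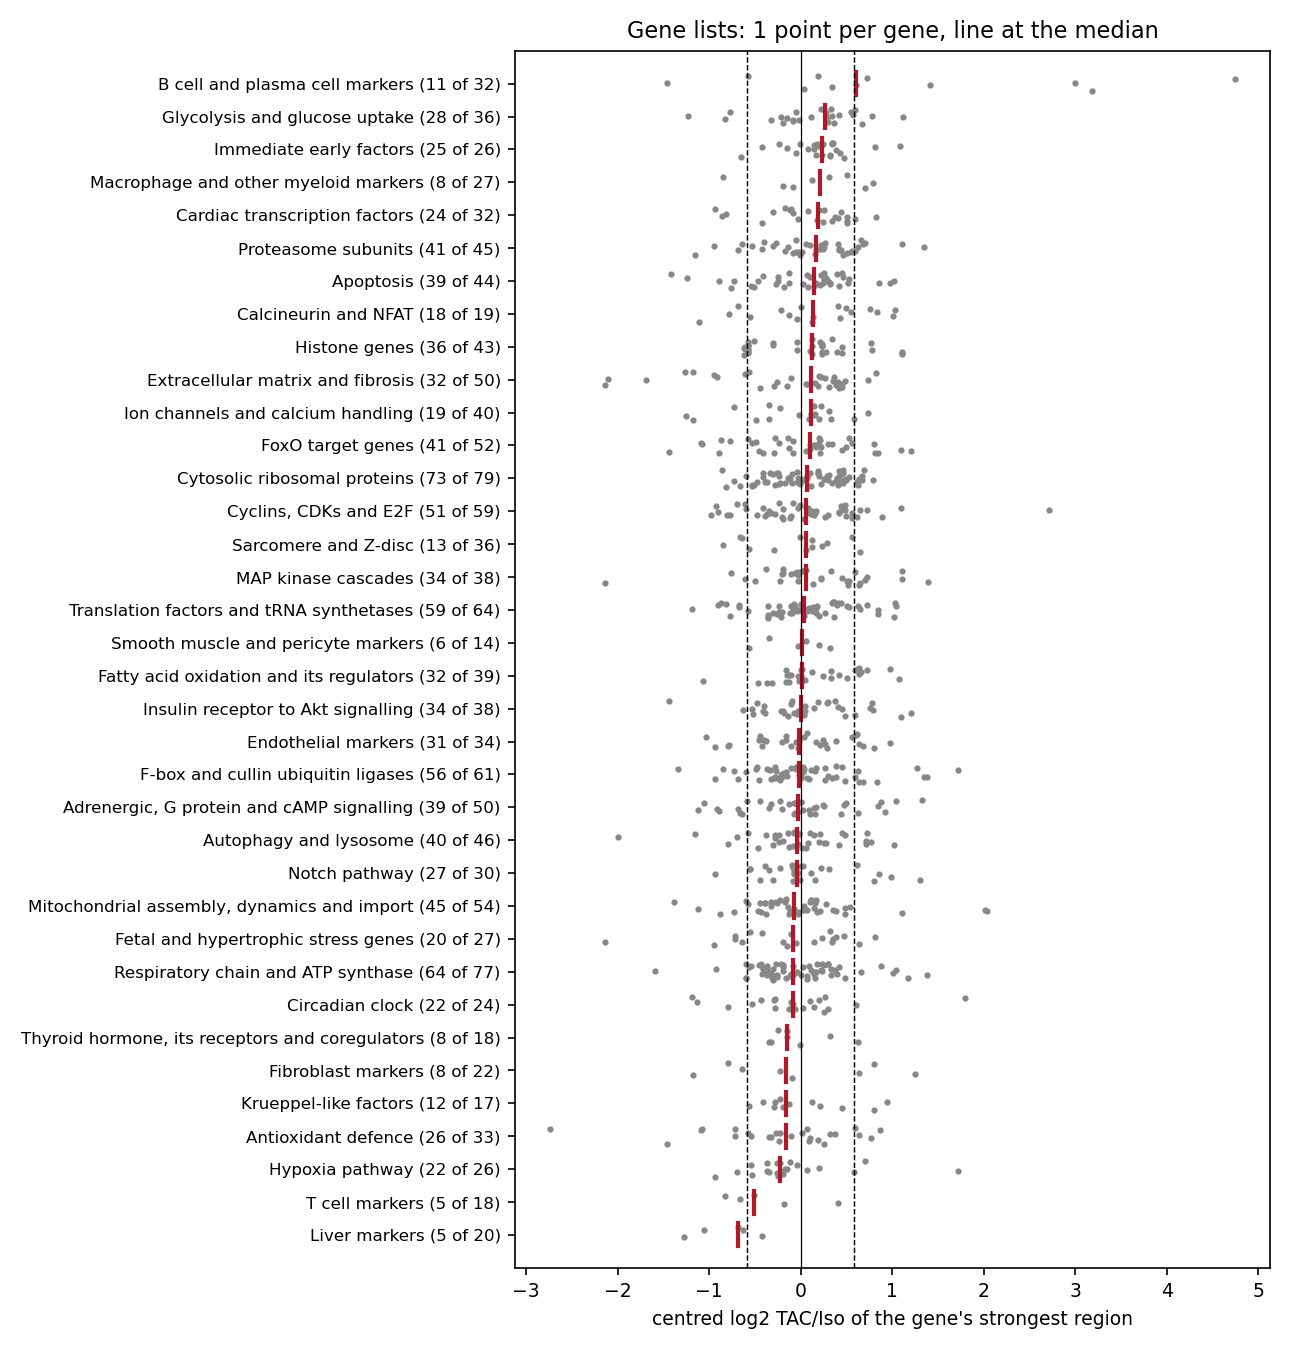
Centred log2 TAC/Iso ratio (horizontal axis) of the genes of each list, 1 point per gene with a region, for lists with at least 5 such genes (in brackets, genes with a region of genes in the list); the line is the list's median and dashed lines mark 1.5-fold. Medians of all lists with at least 10 such genes but the B cell list lie between -0.22 and 0.26, and points fall on both sides of 0 in every list shown but the liver list.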

How the data were processed

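FoxO1 ChIP-seq of pooled mouse hearts was analysed from the authors' deposited table of regions merged over libraries. Its signal values are mean coverage per region, and its peak values are whole-number depths, as deposited by the authors; per the submitters' processing notes, BWA, SICER and the build mm10 were used (no versions listed); no source at hand states how libraries were scaled. 6 columns of 2 other libraries were not used. Genes, CpG islands and distances are those of the table. The log2 ratio of TAC to Iso used a pseudocount of 1, which understates the ratio of low regions, and was centred on its median. Higher and lower mean 1.5-fold, a rule of size; with 1 library a side no test was made. Ratios of peak depths have exact 95% Clopper-Pearson counting intervals and shares Wilson intervals; they cover counting error only, since fragments without molecular identifiers are not independent. Medians have order-statistic intervals. List genes were matched through RefSeq symbols (97.2% of 11718 symbols). Named genes were, among regions of at least median signal, the 10 highest and 10 lowest by counting bound, the 6 highest and 6 lowest ratios at promoters and elsewhere, the 10 strongest regions, the 3 highest and 3 lowest members of a list, the Foxo genes and the immunoglobulin genes; from these the text gives the ones described. Cd79a, Hadha, Mt2, Nr1d1, Pik3cb, Pik3r1, Prdm1, Tgfbr1, Txnip and Xbp1, outside that rule, were chosen after their values were seen. No genome was used, so sequences are RefSeq promoter windows and not region centres. Members and lists were chosen with earlier results of these data known. Functions were tested on simulated data. Tables were handled with pandas 2.3.3 and numpy 2.4.6 under Python 3.11.15, intervals computed with scipy 1.17.1 and figures drawn with matplotlib 3.10.9.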

Additional observations from a re-analysis of the deposited data

How the results depend on the processing

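No paired analysis was possible because each group had 1 library. The promoter median of 0.09 was 0.072 with a pseudocount of 5 and 0.39 without centring. The median of the other regions, -0.14, was -0.11 with a pseudocount of 5, -0.12 with peak depths, -0.17 with regions called in Iso or TAC, -0.21 with promoters widened to 5000 bp, and turned to 0.16 without centring, which adds 0.29 to every ratio. The weakest Veh/Sham group's 0.13 was 0.066 with a pseudocount of 5, 0.21 without the 25% of regions with the lowest signal, 0.41 with called regions and 0.43 without centring. The strongest group's -0.10 was -0.064 with a pseudocount of 5, -0.14 with peak depths, -0.12 with called regions, and turned to 0.20 without centring. The 2738 higher regions were 1606 with a pseudocount of 5, 1533 with called regions, 5065 without centring and 1035 at 2-fold, and the 2807 lower ones 1852, 1715, 1427 and 1082. Of all calls past 1.5-fold, 49.4% were higher with centring and 78.0% without. Settings added after seeing the data gave the island shoulders (0.31) 0.22 with a pseudocount of 5, 0.34 with 0.1 and 0.60 without centring, and the distant regions (-0.31) -0.24 with a pseudocount of 5, -0.40 with called regions and -0.017 without centring. Scaling by total signal kept these 8 results within their intervals or within 1.5 times. Medians of the lists stayed within their order-statistic intervals in 276 of 304 settings, and 24 of the 28 that left them were without centring. Intervals of short lists are wide, as in the FoxO family (-0.71 to 0.59), so staying within them says little. For named regions, the log2 width of the counting interval was set around the centred ratio, and all 349 settings stayed within it. These widths were large: without centring none of 51 regions left them, although every ratio rose by 0.29. The count therefore says little about how stable a single region's ratio is. Called regions were chosen by the authors with the compared values, so that setting selects on them.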

Other observations

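Most genes with many regions had some on each side. Of the 140 genes with at least 8 assigned regions, 84 had regions at least 1.5-fold higher and regions at least 1.5-fold lower in TAC, 41 had higher ones only, 12 lower ones only and 3 neither. Over all regions 17.0% were higher and 17.4% lower, so a gene with this many regions will often have both. The 84 are therefore not read as a trait of these genes. The gene medians had quartiles of -0.05 and 0.31. The genes named here lie towards the ends of that list, Zbtb16 apart, and were chosen after their values were seen. Egfl7, an endothelial secreted factor, had 11 regions with a median centred ratio of 0.75, of which 6 were at least 1.5-fold higher in TAC and 0 lower. Ubtf, a factor of ribosomal RNA transcription, had 9 regions with a median of 0.71 (5 higher, 0 lower), and Bahcc1 11 with 0.61 (6 and 0). Itpkb, an inositol phosphate kinase, had 22 regions with a median of 0.45 (8 higher, 2 lower), and Nfic, a nuclear factor I gene, 14 with 0.49 (5 and 0). On the other side, Chd9, a chromatin remodeller, had 8 regions with a median of -0.67 (0 higher, 5 lower), Mbnl2, a splicing regulator, 9 with -0.54 (2 and 4) and Zbtb20, a zinc finger repressor, 8 with -0.46 (0 and 3). Zbtb16, with the most regions of any gene (27), had a median of 0.10 with 6 higher and 3 lower.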
